A study of Mus musculus with 68 samples.

Results

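The 32 genes described here act in the synthesis of sterols (11 genes), fatty acids (13 genes) and ceramides (8 genes) or in its regulation, and in lipid transport and breakdown. In the ceramide arm Acer1, Acer2 and Sgpp1 act in breakdown. The genes were followed in benign skin papillomas. They were chosen by name for their known roles, with earlier results of these data known. Each was read from 1 probeset, the one with the highest mean over all arrays among those assigned to that gene alone. Together they are 32 of 12605 genes that were tested. The tumors were 68 papillomas of 37 FVBBX mice, a backcross of SPRET/Ei (Mus spretus) and FVB/N F1 mice to FVB/N, so that each mouse carries its own mixture of SPRET/Ei and FVB/N alleles. All mice had received DMBA, a mutagen that starts tumors, once on the back skin at 8 to 12 weeks of age, and then TPA, a promoter of growth, for 20 weeks. Papillomas were taken when a mouse was killed for a carcinoma or at the end of the experiment, 1 Affymetrix array was run per papilloma, and 31 mice gave 2 papillomas each while 6 gave a single one. The days a mouse was alive therefore differed widely between mice. They are missing from the labels for some susceptible, intermediate and resistant mice, and no result here is given by them.

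By the number of papillomas at 20 weeks, 12 mice (22 arrays, 9 to 35 papillomas each) were susceptible, 19 mice (35 arrays, 2 to 7 papillomas) were intermediate and 6 mice (11 arrays, 0 or 1 papilloma) were resistant. The labels give a later first papilloma for some resistant mice than for any susceptible mouse, and for others one as early. Class and the time at which a tumor arose therefore cannot be fully told apart. There were 16 male and 21 female mice, 17 agouti and 20 white ones, and every mouse had been given the same treatment, so no group here is untreated. Levels are RMA values on the log2 scale, where a difference of 1 is a doubling, and values of different probesets cannot be set against each other as amounts. The array medians lay between 5.18 and 5.28, and a probeset was tested if it lay above the median of its array in at least 11 arrays, which all 32 members did. The papillomas of a mouse were averaged, n counts mice, and the p-values measure the spread between mice. Mice are numbered 1 to 37 in this work. The papillomas are bulk tissue, so that fewer cells of a type and less RNA per cell cannot be told apart.

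Sterols, fatty acids and ceramides are the lipids from which the skin makes its water barrier. Keratinocytes pack them into lamellar bodies in the granular layer and release them between the cornified cells, where ceramides with very long acyl chains hold water in. Sebaceous glands make another mixture, rich in triglycerides, wax esters and monounsaturated fatty acids. Sterol and fatty acid enzymes are switched on by the SREBP transcription factors, SREBP2 mainly for sterols and SREBP1 mainly for fatty acids, and INSIG proteins hold these factors in the endoplasmic reticulum when sterol is plentiful.

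Papilloma 1 of mouse 32, a resistant mouse, stood apart from the rest. Of the 32 members, 13 had their lowest level of all 68 arrays there, among them Acer1 at 3.76 (7.79 to 10.53 in the other 67 arrays), Elovl4 at 6.88 (10.49 to 12.69) and Smpd1 at 7.03 (8.84 to 12.02). The mean of 11 marker genes of the granular and cornified layers was 5.69 in this papilloma and 9.29 to 12.38 in the others, and the sebocyte and hyperplastic epidermis markers were also at their lowest, while the basal layer markers were at 11.76, above the 10.22 to 11.65 of the others. Several results that rest on mouse 32 are therefore given with and without it, while counts and medians over members are with it unless stated. In 6 mice (8 arrays), 1 of them susceptible, 4 intermediate and 1 resistant, Xist or Eif2s3y went against the sex label.

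The sterol arm holds 2 regulators, Srebf2 (SREBP2) and Insig1, and 9 enzymes in the order of the pathway: Hmgcs1, Mvd, Idi1 and Fdps make farnesyl diphosphate from acetyl-CoA units, Fdft1 joins it to squalene, Sqle oxidizes squalene, Lss closes the rings, and Cyp51 and Dhcr7 take the product on to cholesterol. Over the 37 mice their standard deviations (SD) ran between 0.22 for Srebf2 and 0.49 for Fdps, with a median of 0.37, against a median of 0.28 over all tested probesets. Promoter windows of RefSeq (GRCm38.p6; 250 bases before to 50 after a gene's start) were matched for 8 sterol members (10 windows), 9 fatty acid members (12 windows) and 8 ceramide members (8 windows), and Fdps, Fdft1, Sqle, Scd1, Elovl3, Dgat1 and Dgat2 were not searched. A sterol element spelled TCACNCCAC, searched on both strands, was in 1 of the 10 sterol windows, 0 of 12 fatty acid windows, 0 of 8 ceramide windows and 1.24% of 32851 windows of all genes. CACGTG was in 2 of 10 sterol windows (Insig1 and Dhcr7), in 2 of 12 fatty acid windows (Elovl4 and Elovl5), in 0 of 8 ceramide windows and in 7.15% of all windows, and CCAAT was in 8 of 10, 7 of 12 and 4 of 8 windows of the 3 arms and in 37.4% of all. These are matches of letters and say nothing of binding. The single TCACNCCAC match lay in Hmgcs1, the enzyme at the head of the pathway, 137 bases before its start, and its upstream sequence is shown because no other member searched held the match, with the match in capitals (plus strand, chr13:119690101-119690350).
Hmgcs1: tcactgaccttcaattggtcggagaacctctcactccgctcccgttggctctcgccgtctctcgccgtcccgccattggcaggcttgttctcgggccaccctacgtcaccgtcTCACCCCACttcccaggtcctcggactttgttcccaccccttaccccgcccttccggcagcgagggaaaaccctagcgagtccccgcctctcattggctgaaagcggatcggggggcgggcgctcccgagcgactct

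The fatty acid arm holds Srebf1 (SREBP1), the enzymes of new synthesis Acly, Acaca and Fasn, the desaturase Scd1, 6 elongases (Elovl1, Elovl3, Elovl4, Elovl5, Elovl6 and Elovl7) and the acyltransferases Dgat1 and Dgat2, which finish triglycerides. Its spread was uneven. Elovl3, an elongase known from sebaceous gland and brown fat, had an SD of 1.44, with 4.79 in the lowest and 11.06 in the highest mouse, and only 0.48% of all tested probesets varied more. Scd1, which makes monounsaturated fatty acids and is at high levels in sebocytes, had an SD of 1.07, while Srebf1 had one of 0.19. The ceramide arm holds Sptlc1 and Sptlc2, subunits of the enzyme that starts ceramide synthesis, Ugcg, which adds glucose to ceramide for transport, Abca12, which loads glucosylceramide into lamellar bodies, Smpd1, which frees ceramide from sphingomyelin, and Acer1, Acer2 and Sgpp1, which act on ceramide breakdown and on sphingosine phosphate. Its median SD was 0.49, and Acer1 (0.78), Smpd1 (0.72) and Abca12 (0.68) varied most.

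Between susceptible and resistant mice no member passed an adjusted p of 0.05 (limma on mouse means, Benjamini-Hochberg over 21581 probesets), where 0.0510% of all tested probesets passed, 0.0417% higher and 0.00927% lower in susceptible mice. In direction, 29 of the 32 members were higher in susceptible papillomas, against 52.0% of all tested probesets. At an unadjusted p of 0.05 there were 10 members by limma and 9 by exact permutation, all higher in susceptible mice, where 9.52% of all probesets reached that level in either direction and 5.57% in this one. The median difference was 0.26 over the sterol arm, 0.34 over the fatty acid arm and 0.55 over the ceramide arm, against 0.01 over all tested probesets. Members vary together, so their count is not a count of independent results.

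**Figure D1:**
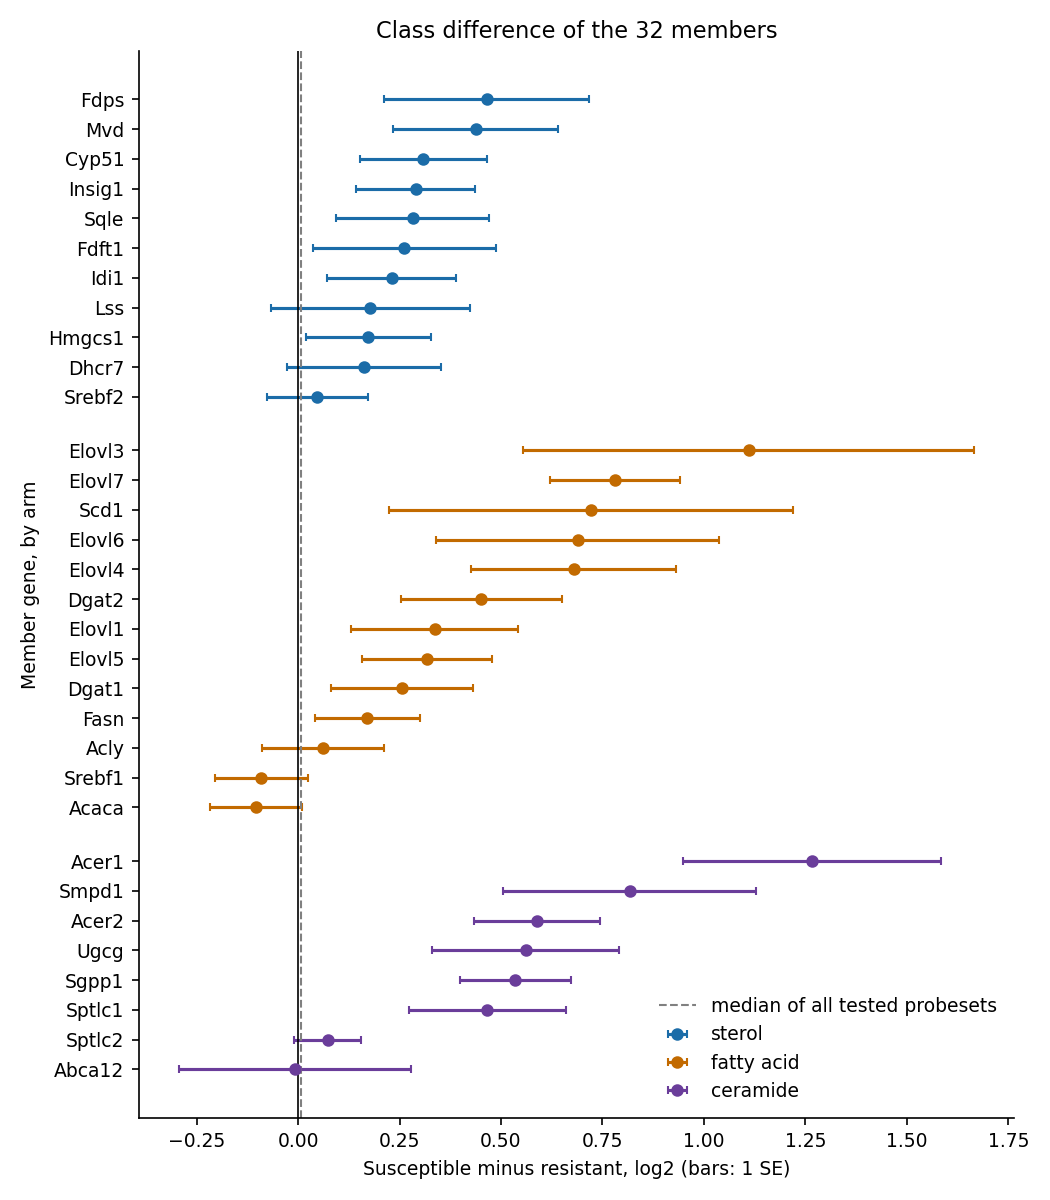
Difference between susceptible and resistant mice (x axis, log2) for each of the 32 members (y axis, ordered by size within the sterol, fatty acid and ceramide arms), with bars of 1 standard error and a dashed line at the median of all tested probesets. The sterol members lie between 0.05 and 0.47, and the widest difference is that of Acer1 at 1.27.

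All 11 sterol members were higher in susceptible mice, and none passed the test. Squalene epoxidase (Sqle) had 10.09, 10.74 and 11.33 as lowest, median and highest level in susceptible mice, against 10.10, 10.54 and 10.70 in resistant mice. In 6 of the 12 susceptible mice Sqle lay above every resistant mouse, while the lowest mice of both classes were alike, and the difference was 0.28 ± 0.19 (SE; adjusted p = 0.676 by limma, exact two-sided permutation p = 0.169). Mvd, mevalonate diphosphate decarboxylase, had 7.43, 8.34 and 8.83 in susceptible mice and 7.16, 8.04 and 8.32 in resistant mice, which overlap. Its difference, 0.44 ± 0.20, had the smallest p of the arm (limma adjusted p = 0.508, exact permutation p = 0.0574).

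The lanosterol demethylase Cyp51 came next, with 9.43, 10.06 and 10.45 in susceptible mice and 9.15, 9.73 and 10.06 in resistant mice. The classes overlapped over most of their range, and the difference was 0.31 ± 0.16 (limma adjusted p = 0.541, exact permutation p = 0.0738). Hmgcs1, whose upstream sequence is given above, had 11.63, 12.18 and 12.58 against 11.61, 11.96 and 12.46 in resistant mice, a difference of 0.17 ± 0.15. Of the other members, Fdps differed by 0.47, Insig1 by 0.29, Fdft1 by 0.26, Idi1 by 0.23, Lss by 0.18, Dhcr7 by 0.16 and Srebf2 by 0.05, with adjusted p-values by limma between 0.542 and 0.954. The intermediate mice were not between the classes: their median of Sqle was 10.94, above the medians of the susceptible and of the resistant mice.

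**Figure D2:**
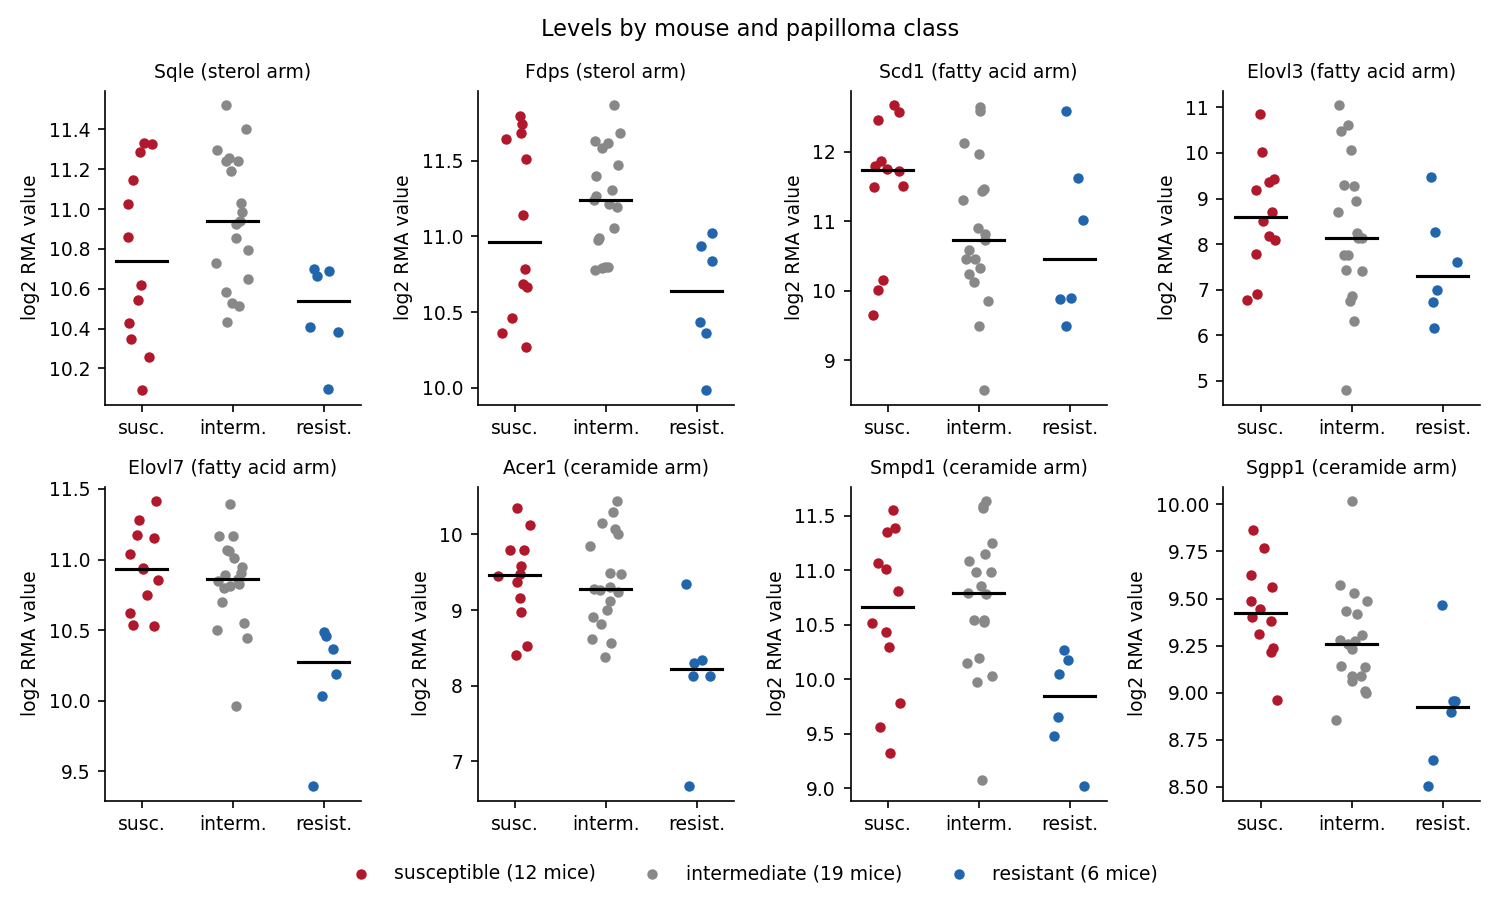
Log2 RMA level (y axis) of 8 members in each mouse (points), by class (x axis: 12 susceptible, 19 intermediate and 6 resistant mice), with a line at the class median. The 12 susceptible mice all lie above the 6 resistant mice for Elovl7, and the classes overlap in the other 7 panels.

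In the fatty acid arm 11 of 13 members were higher in susceptible mice, and the elongases Elovl7 and Elovl4 had the smallest p-values. Elovl7, an elongase of long-chain fatty acids, had 10.53, 10.94 and 11.42 in susceptible mice, against 9.39, 10.28 and 10.49 in resistant mice. It was the only member whose classes did not overlap, as was true of 0.0649% of all tested probesets in this direction and of 0.0139% in the other. The difference was 0.78 ± 0.16, a 1.72-fold level, with a limma adjusted p of 0.0661 and an exact permutation p of 5.39e-05, the smallest that 18564 splits can give. Leaving out 1 mouse at a time gave adjusted p-values between 0.0386 (without susceptible mouse 29) and 0.165, and without mouse 32 the difference was 0.63 (limma adjusted p = 0.150).

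Elovl4, which makes the longest acyl chains of barrier ceramides, had 11.15, 11.82 and 12.54 in susceptible mice and 9.78, 11.28 and 11.79 in resistant mice. In 7 susceptible mice it lay above all resistant ones, and 3 resistant mice lay below all susceptible ones. The difference of 0.68 ± 0.25 (limma adjusted p = 0.346, exact permutation p = 0.0163) was 0.41 without mouse 32, and lay between 0.41 and 0.81 over all mice left out in turn. Scd1 had 9.66, 11.74 and 12.68 against 9.50, 10.46 and 12.60 in resistant mice. These ranges nearly coincide, and the difference of 0.72 ± 0.50 was not detectable beyond the spread between mice (limma adjusted p = 0.690). Acaca, acetyl-CoA carboxylase, had 7.96, 8.49 and 8.79 in susceptible mice and 8.43, 8.52 and 8.91 in resistant mice, and at -0.10 it was 1 of 3 members lower in susceptible mice, with Srebf1 at -0.09 and Abca12 at -0.01. Elovl3 differed by 1.11 ± 0.56, Elovl6 by 0.69 ± 0.35, Dgat2 by 0.45, Elovl1 by 0.34, Elovl5 by 0.32, Dgat1 by 0.26, Fasn by 0.17 and Acly by 0.06, all with adjusted p-values over 0.05.

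The ceramide arm had the largest median difference (0.55), with 7 of 8 members higher in susceptible mice and 6 of these at an unadjusted p of 0.05. With sex and start cohort as covariates, Acer1 (1.54) and Acer2 (0.79) differed more than without them, and Ugcg (0.23) and Sptlc1 (0.18) less. In that setting Elovl3 (2.21) and Scd1 (1.62) of the fatty acid arm differed more than Acer1, so the ceramide arm does not lead in every setting. No member passed there (limma adjusted p = 0.256 for Acer1 and 0.337 for Acer2). Only start cohorts 2, 3 and 7 held both classes (2 susceptible against 2 resistant mice, 3 against 1 and 1 against 1). The estimates with cohort as a covariate therefore rest mainly on these few mice. Acer1, the alkaline ceramidase of the upper epidermis, had 8.41, 9.47 and 10.35 in susceptible mice, against 6.67, 8.22 and 9.34 in resistant mice. In 8 of 12 susceptible mice it lay above every resistant mouse, and 5 of 6 resistant mice lay below every susceptible one. The difference was 1.27 ± 0.32, a 2.40-fold level (limma adjusted p = 0.134, exact permutation p = 0.00113). Without mouse 32 it was 0.97 (limma adjusted p = 0.348), and over all mice left out in turn the adjusted p lay between 0.0592 and 0.348.

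Sgpp1, a phosphatase of sphingosine phosphate, had 8.96, 9.42 and 9.87 in susceptible mice and 8.50, 8.93 and 9.47 in resistant mice, and 1 resistant mouse, number 37, lay among the susceptible mice while the other 5 lay below them. The difference was 0.54 ± 0.14 (limma adjusted p = 0.146, exact permutation p = 0.00151). Without mouse 37 it was 0.65 and passed (adjusted p = 0.0481), and the adjusted p reached 0.363 over the other mice left out in turn. Sptlc2 had 9.66, 9.83 and 10.04 against 9.42, 9.85 and 9.93 in resistant mice, a difference of 0.07 ± 0.08. Smpd1 differed by 0.82 ± 0.31 (limma adjusted p = 0.367, exact permutation p = 0.0287), and without mouse 32 by 0.67 (limma adjusted p = 0.614). Acer2 differed by 0.59 ± 0.15 (limma adjusted p = 0.154, exact permutation p = 0.00221). Acer2 is among the genes that the study linked to susceptibility on these same papillomas, so its difference is not independent evidence. Ugcg differed by 0.56 (0.46 without mouse 32) and Sptlc1 by 0.47 (0.48 without it).

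Markers of epidermal layers moved with the classes too. The mean of 11 granular and cornified layer markers (such as Krt10, Lor and Flg) had 10.84, 11.55 and 12.26 as lowest, median and highest in susceptible mice and 8.31, 10.41 and 10.73 in resistant mice, which do not overlap, and all 11 markers were higher in susceptible mice. Sebocyte markers were higher by 0.57 (9 of 9) and adipocyte markers by 0.74 (7 of 7), while the basal layer markers were lower by 0.25 (0 of 8 higher), endothelium markers by 0.26 (0 of 6) and hair follicle markers by 0.35 (2 of 8). Of the sebocyte markers, Mc5r and Mogat1 were above the array median in 0 arrays. The part of these cell layers in the differences of the members was not tested. Within start cohorts, groups of mice treated from the same date, 24 members were higher in susceptible mice in cohort 2 (2 mice against 2; median 0.32), 30 in cohort 3 (3 against 1; median 0.50) and 25 in cohort 7 (1 against 1; median 0.35). The other 4 cohorts held no pair of both classes. The Actb 3′ to 5′ control ratio, a sign of RNA integrity on the log2 scale, had 0.48, 0.82 and 1.29 in susceptible mice and 0.18, 0.62 and 0.91 in resistant mice, and with it as a covariate 30 members were higher in susceptible mice and 0 passed. With the first papilloma of each mouse only, which for mouse 32 is the one that stood apart, the differences were 2.33 for Elovl3, 1.24 for Elovl4 and 1.23 for Elovl7 (limma adjusted p = 0.139), and 0 members passed.

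Over all 37 mice, 27 of 32 members had a positive slope on each doubling of the papilloma number plus 1 (48.1% of all tested probesets had a positive slope), and 0 members passed by limma, as did 0.00463% of all tested probesets. At an unadjusted p of 0.05 there were 7, where 10.9% of all tested probesets reached that level. The steepest slopes for their error were those of Elovl7 (0.19 ± 0.05 per doubling, limma adjusted p = 0.136), Sgpp1 (0.14 ± 0.04, adjusted p = 0.145) and Acer2 (0.18 ± 0.05, adjusted p = 0.145).

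Sebaceous lipid synthesis is known to answer to androgens, and male mice were set against female mice. With coat in the model 27 of 32 members, all 11 sterol ones among them, had higher estimates in males (53.3% of all tested probesets), and 0 passed by limma (7 at an unadjusted p of 0.05, where 15.9% of all tested probesets reached that level), as did 0.0278% of all in the male direction, 0.0371% in the female direction and 0.0649% in both. Mvd averaged 8.46 in males and 8.11 in females (0.37 ± 0.13, limma adjusted p = 0.203), Lss 9.36 in males and 9.00 in females (0.38 ± 0.14, adjusted p = 0.218), and Smpd1 10.84 in males and 10.29 in females (0.58 ± 0.21, adjusted p = 0.218). Scd1 ran the other way, with 10.76 in males and 11.25 in females (-0.51 ± 0.34, adjusted p = 0.451). Without the 6 mice of doubtful sex label no member passed either, and the differences were 0.24 for Mvd and 0.23 for Lss.

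FVB/N mice are albino, so an agouti coat in this cross shows a functional pigment allele from SPRET/Ei. With sex in the model 29 of 32 members were lower in agouti mice (47.2% of all tested probesets), and 0 passed by limma (5 at an unadjusted p of 0.05, where 7.87% of all tested probesets reached that level), as did 0.00927% of all upward, 0.0649% downward and 0.0741% in both directions. Among these 5, Sqle averaged 10.67 in agouti and 10.95 in white mice (-0.30 ± 0.12, limma adjusted p = 0.555). Dgat2 averaged 10.08 in agouti and 10.37 in white mice (-0.30 ± 0.12, adjusted p = 0.586). Smpd1 averaged 10.3 in agouti and 10.7 in white mice (-0.46 ± 0.21, adjusted p = 0.619). Acer1, which was not among the 5, averaged 8.95 in agouti and 9.40 in white mice (-0.48 ± 0.24, adjusted p = 0.636). Coat and class overlap in these mice, since 5 of 6 resistant and 4 of 12 susceptible mice were agouti. An agouti coat also marks SPRET/Ei alleles of genes linked to the pigment allele. The paper states that sequence variants of a parental strain can in principle disturb probe hybridization and mimic a local effect on expression. Whether linkage or probe hybridization has a part in the coat differences of members was not tested.

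Across the 37 mice the sterol genes varied together more closely than genes at large. Over the 55 pairs of sterol members the median Pearson r was 0.50, and 52.7% of pairs exceeded 0.5. It was 0.40 over the 78 fatty acid pairs and 0.27 over the 28 ceramide pairs, against 0.00 over all pairs of tested genes, of which 4.01% exceeded 0.5. The sterol members were as close to the ceramide members (median 0.41) as the fatty acid members were to each other. Without mouse 32 the medians were 0.49, 0.37 and 0.20 within the sterol, fatty acid and ceramide arms, and with start cohort, sex and the Actb control ratio removed they were 0.48, 0.35 and 0.24. These are descriptions: the genes of a pair were read on the same arrays, from the same tissue and RNA.

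**Figure D3:**
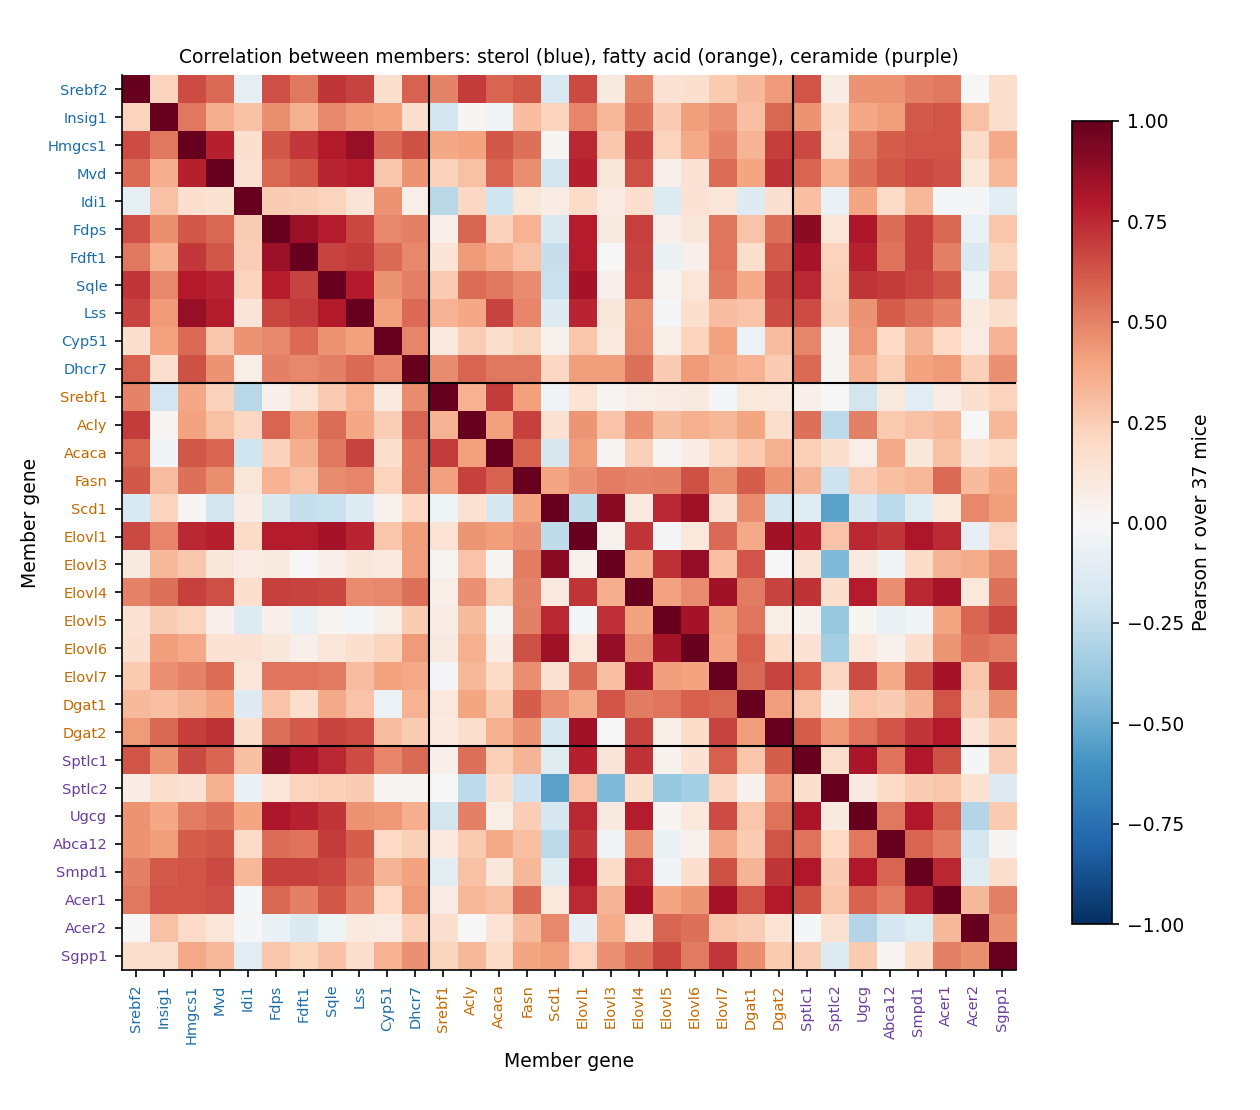
Pearson r over 37 mice between each pair of members, ordered by arm (black lines divide the arms, red is positive and blue negative). Over all mice Scd1, Elovl3, Elovl5 and Elovl6 form a block of their own, while Elovl1, Elovl4, Elovl7 and Dgat2 are red against the sterol and ceramide members. Relations within single start cohorts are not shown and can differ.

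The closest pair crossed the arms. Fdps, which makes farnesyl diphosphate, and Sptlc1 of ceramide synthesis had r = 0.90 (rho = 0.89). Scd1 and Elovl3 also had r = 0.90 (rho = 0.89), Hmgcs1 and Lss had 0.87, and the lowest value was that of Scd1 and Sptlc2 at -0.54. The mean of the sterol arm and that of the ceramide arm had r = 0.84 (rho = 0.85, n = 37; 0.81 without the 2 mice farthest from the median; 0.71, 0.69 and 0.96 within start cohorts 1, 2 and 6, of 6, 8 and 9 mice). The sterol and fatty acid means had r = 0.48 (rho = 0.40), with 0.45, 0.17 and 0.77 within those cohorts, and the fatty acid and ceramide means had r = 0.57 (rho = 0.52), with -0.10, 0.77 and 0.78.

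The fatty acid arm fell into at least 2 sets, picked here after their correlations were seen and so given with no test. Scd1, Elovl3, Elovl5 and Elovl6 had r between 0.73 and 0.90 among themselves. Elovl1, Elovl4, Elovl7 and Dgat2 had r between 0.57 and 0.84 among themselves, and the 16 pairs across these sets had a median of 0.12. These values pool cohorts that differed. Within cohorts 1, 2 and 6 Scd1 had r of -0.89, -0.19 and 0.64 with Elovl1 and -0.38, -0.11 and 0.82 with Elovl4. With Elovl7 it had -0.86, 0.36 and 0.64, and with Dgat2 -0.70, 0.39 and 0.67. Scd1 was thus not apart from the Elovl4 set in cohort 6. With the sterol members the Scd1 set had a median r of 0.09 and the Elovl4 set one of 0.54, and with the ceramide members these medians were 0.11 and 0.62.

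One gene of each arm was then used as a covariate over all probesets. With Sqle, 22 of the other 31 members rose and 0 fell (limma, adjusted p under 0.05), where 17.8% of all tested probesets rose and 19.0% fell, 36.8% together. These were 9 of 10 sterol, 8 of 13 fatty acid and 5 of 8 ceramide members. Elovl1, an elongase of ceramide acyl chains, was of all 12604 other genes the closest to Sqle (r = 0.83, rho = 0.83, limma adjusted p = 3.86e-07; 0.89, 0.77 and 0.69 within cohorts 1, 2 and 6). Lss (0.79), Hmgcs1 (0.79), Fdps (0.79) and Mvd (0.76) followed among the members, while Idi1 (0.22, adjusted p = 0.288) was the sterol member that did not pass. In the 19 intermediate mice alone, a set added after the data were seen, 2 members passed with Sqle.

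With Scd1, 4 of 31 members rose and 1 fell, against 3.12% and 1.30% of all tested probesets, 4.43% together. Elovl3 (r = 0.90, limma adjusted p = 1.52e-11), Elovl6 (0.85), Elovl5 (0.75) and Acer2 (0.48, adjusted p = 0.0477) rose, and Sptlc2 fell (-0.54, adjusted p = 0.0327). Without the 2 mice farthest from the median of Scd1 only the 3 elongases passed. None of the 11 sterol members passed with Scd1, with adjusted p-values from 0.400 upward. Elovl3 kept its relation to Scd1 within the cohorts (0.79, 0.73 and 0.96), whereas Sqle and Scd1 had r = -0.22 over 37 mice but -0.75, -0.58 and 0.69 within cohorts 1, 2 and 6, so that no single direction holds.

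With Acer1, 21 of 31 members rose and 0 fell, against 7.93% and 8.51% of all tested probesets, 16.4% together. These were 9 of 11 sterol, 7 of 13 fatty acid and 5 of 7 ceramide members. Elovl7 (r = 0.83, limma adjusted p = 6.16e-08; 0.75 without the 2 farthest mice), Elovl4 (0.83; 0.76 without them), Dgat2 (0.79) and Smpd1 (0.76) were closest. Acer1 and Scd1 had r = 0.11 over all mice, with -0.88, 0.21 and 0.87 within the cohorts.

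The genes outside the 32 that varied most like each of these 3 were also found over 37 mice. Nearest to Sqle were Rrn3 (r = 0.82), Rps6kb2 (0.81), Pla2g4e (0.81), Plcd1 (0.81) and Ttc39b (0.81). Nearest to Scd1 were Mgll, which splits monoacylglycerol (0.93), Far2, which makes fatty alcohols and is on the sebocyte list (0.90), Tlcd4 (0.88), Pctp (0.88) and Fa2h, a fatty acid hydroxylase (0.88). Nearest to Acer1 were the desmosomal cadherins Dsc1 (0.94) and Dsg1a (0.93), then Aox4 (0.89), Rora (0.88) and Casp14 (0.88), a protease of cornifying cells that is on the granular layer list.

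**Figure D4:**
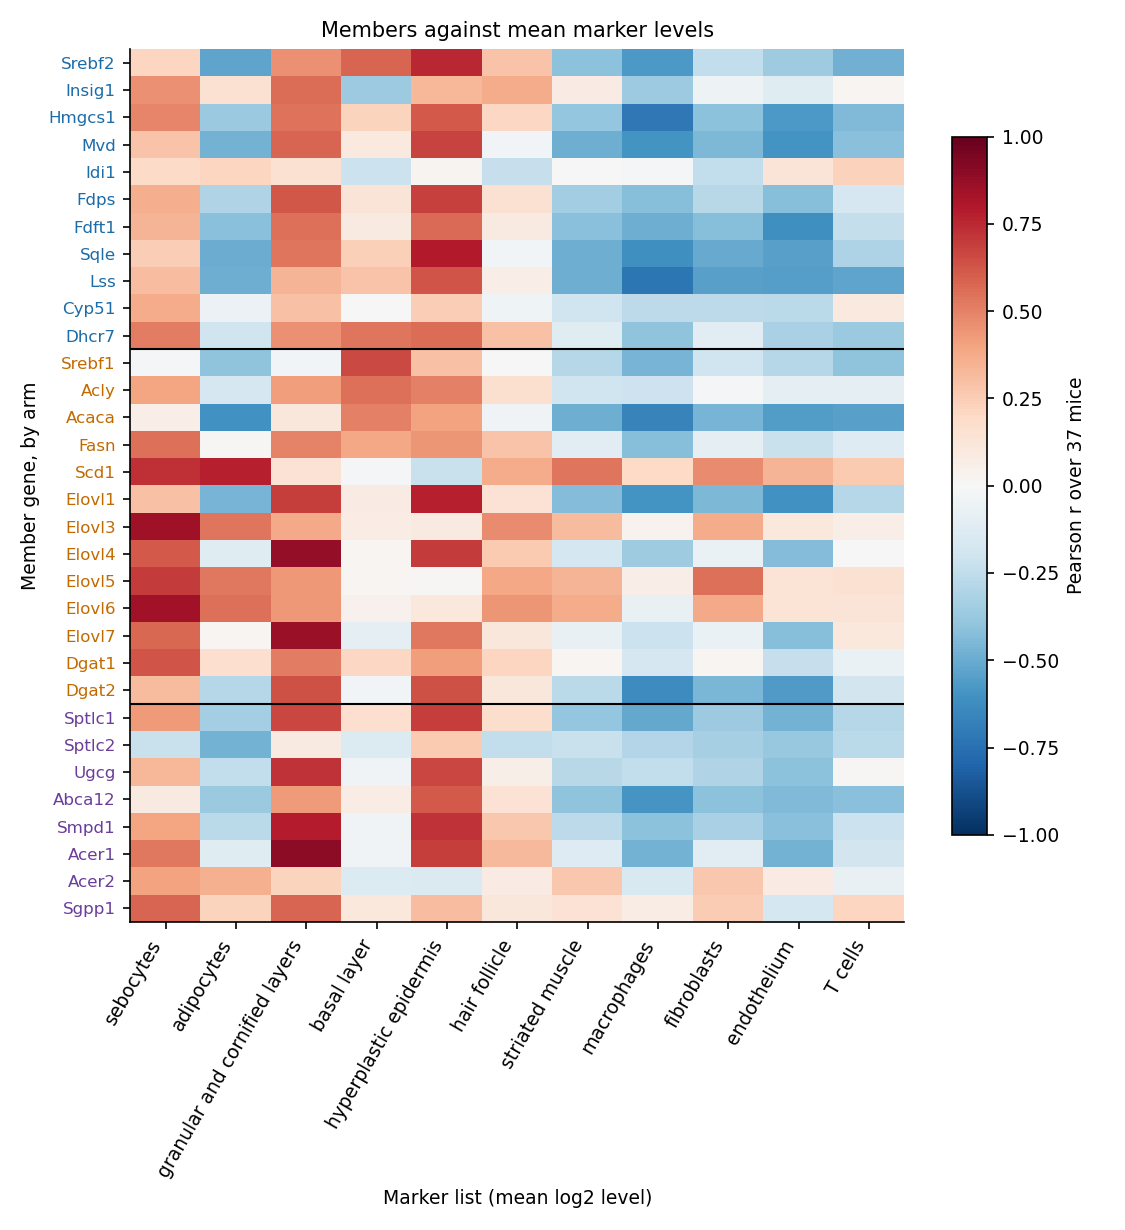
Pearson r over 37 mice between each member (y axis, by arm) and the mean log2 level of 11 marker lists (x axis), with red positive and blue negative. Acer1, Smpd1, Ugcg, Elovl4 and Elovl7 are dark red against the granular and cornified layers, and Scd1, Elovl3, Elovl5 and Elovl6 against sebocytes and adipocytes.

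Each arm was set beside the marker lists, as a description with no test of a difference between arms. The ceramide mean followed the granular and cornified layer markers (r = 0.88, rho = 0.90; 0.87 without mouse 32; 0.94, 0.94 and 0.84 within cohorts 1, 2 and 6). The fatty acid mean followed the sebocyte markers (r = 0.90, rho = 0.89; 0.63, 0.99 and 0.94 within the cohorts), a list that includes the desaturase Scd3 but no member. Within that arm Elovl3, Elovl6, Scd1 and Elovl5 had r between 0.70 and 0.85 with these markers and Dgat1, Elovl4, Elovl7 and Fasn between 0.55 and 0.63, while Acly had 0.39, Dgat2 0.32, Elovl1 0.30, Acaca 0.06 and Srebf1 -0.01, and Elovl3 and Scd1 are also the 2 members of the arm with the widest SD. Of the 11 lists the sterol mean was closest to the markers of hyperplastic epidermis such as Krt6a and Krt16 (r = 0.72, rho = 0.71; 0.81, 0.84 and 0.67 within the cohorts), with which the ceramide mean had r = 0.78. With the granular markers the sterol mean had r = 0.62 and the fatty acid mean 0.65. The sterol mean ran against the macrophage markers (r = -0.63; -0.88, -0.37 and -0.57). This was not particular to macrophages or to the sterol arm. The sterol mean also had r = -0.54 with endothelium, -0.45 with fibroblast, -0.42 with striated muscle and -0.37 with adipocyte markers. The ceramide mean had -0.53 with macrophage and -0.52 with endothelium markers. Within cohort 6 the sterol mean had 0.13 with endothelium and 0.03 with fibroblast markers.

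Among single members Acer1 had r = 0.90 with the granular markers (0.85 without mouse 32), Elovl4 0.88 (0.82 without it) and Elovl7 0.86 (0.80 without it). Sqle had 0.79 with the hyperplastic markers, with 0.82, 0.84 and 0.81 within the cohorts. Scd1 had 0.77 with the adipocyte markers (0.88, 0.85 and 0.74 within the cohorts) and 0.73 with the sebocyte markers (0.79, 0.60 and 0.93). It also had 0.54 with the striated muscle markers and 0.48 with the fibroblast markers. Which cells the Scd1 signal came from in these bulk papillomas was not tested.

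Papillomas of 1 mouse were compared by the intraclass correlation (ICC), the share of the variance over 62 arrays that lies between the 31 mice. It passed (F test with Benjamini-Hochberg adjustment over all probesets, adjusted p under 0.05) for 19 of 32 members, against 71.0% of all tested probesets, and the median ICC was 0.34 over the members and 0.44 over all. By arm, 7 of 11 sterol, 9 of 13 fatty acid and 3 of 8 ceramide members passed. Without mouse 32 the count was 28 of 32 (10, 11 and 7), against 74.7% of all tested probesets, and the median was 0.44 over the members and 0.46 over all. Without the 6 mice of doubtful sex label it was 12 of 32, against 58.2% of all.

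Over the chosen probesets the enzyme of committed fatty acid synthesis, Acaca, was the member most alike within mice (ICC 0.64, and 0.71 without mouse 32). Its widest pair was 0.47 apart. Sqle (0.53) led the sterol arm and Sptlc2 (0.52) the ceramide arm, but without mouse 32 Dhcr7 (0.66, against 0.22 with it) and Acer1 (0.57, against 0.23 with it) led, with Sqle at 0.52 and Sptlc2 at 0.49. Hmgcs1 (0.19, and 0.29 without mouse 32) and Sgpp1 (0.17 and 0.14) were the least alike in their arms in both settings. Elovl4 had the lowest ICC of the fatty acid arm (-0.02), and 0.53 without mouse 32, where Srebf1 was lowest (0.17). For 13 members the widest pair was that of mouse 32, for 9 that of mouse 14 and for 6 that of mouse 9.

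**Figure D5:**
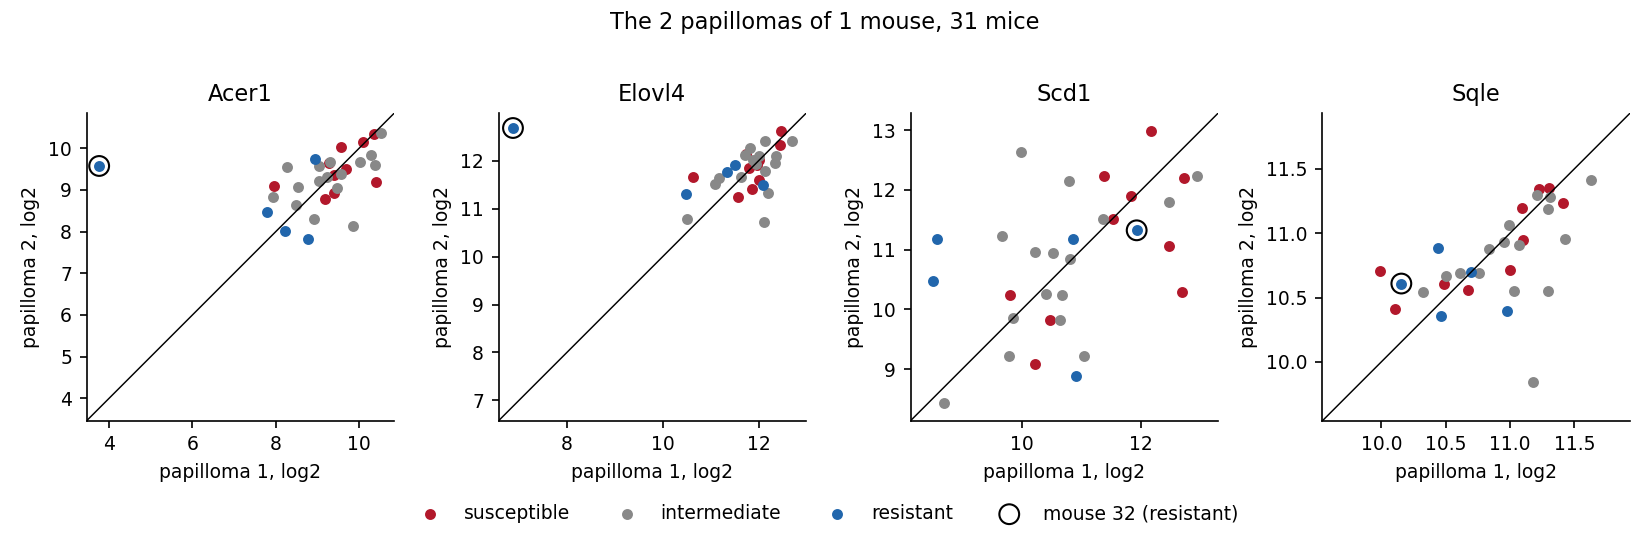
Log2 level in papilloma 1 (x axis) and papilloma 2 (y axis) of each of 31 mice for 4 members, colored by class, with a line of equality and a ring around mouse 32. The papillomas of mouse 32 lie 5.81 apart for both Acer1 and Elovl4, and those of mouse 14 lie 1.34 apart for Sqle.

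Papilloma 2 of mouse 32 was higher than papilloma 1 for 29 of 32 members. Acer1 was 9.57 in papilloma 2 and 3.76 in papilloma 1, Elovl3 10.48 and 4.72, Smpd1 11.01 and 7.03, and Sqle 10.61 and 10.16. Scd1 ran the other way, with 11.33 in papilloma 2 and 11.92 in papilloma 1, and the adipocyte markers did so too (6.58 and 9.48). The granular markers were 10.93 in papilloma 2 and 5.69 in papilloma 1, and the sebocyte markers 8.15 and 5.66. In mouse 14, an intermediate mouse, 24 members were lower in papilloma 2, and the sterol members were apart by a median of 1.32, with Fdps at 10.14 in papilloma 2 and 11.81 in papilloma 1. Papilloma 2 of mouse 14 had a higher level of striated muscle markers (7.47, against 4.98 in papilloma 1) and a lower one of granular markers (10.78, against 12.10), and the part of these tissues in the gap was not tested.

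The differences between the papillomas of a mouse also moved together. Over 31 mice the median r of the differences was 0.74 within the sterol arm, 0.40 within the fatty acid arm and 0.53 within the ceramide arm, against 0.01 over all gene pairs. Between the sterol and ceramide arms it was 0.60, and between the sterol and fatty acid arms 0.24. Without mice 14 and 32 these medians were 0.53, 0.30 and 0.30 within the sterol, fatty acid and ceramide arms, 0.38 between sterol and ceramide and 0.15 between sterol and fatty acid.

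Other genes of the same pathways were read from lists made for this work. Of 15 other sterol genes 10 were higher in susceptible mice (52.0% of all tested probesets) and 0 passed (0.0510% of all). At an unadjusted p of 0.05 by limma there were 4, where 9.52% of all tested probesets reached that level. Those of smallest p were Pmvk (8.79 in susceptible and 8.24 in resistant mice; 0.55 ± 0.19, limma adjusted p = 0.304), Msmo1 (0.50 ± 0.18, adjusted p = 0.314) and Tm7sf2 (0.50 ± 0.18, adjusted p = 0.346), 3 enzymes of the pathway. With Sqle 10 of the 15 rose and 0 fell (17.8% and 19.0% of all tested probesets), while with Scd1 only Insig2 rose.

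Of 23 other fatty acid genes 16 were higher in susceptible mice (52.0% of all tested probesets) and 0 passed (0.0510% of all). At an unadjusted p of 0.05 by limma there were 4, where 9.52% of all tested probesets reached that level. Those of smallest p were Me1 (0.53 ± 0.21), Scd3 (1.23 ± 0.53) and Gpam (0.34 ± 0.16), at adjusted p-values between 0.384 and 0.511 by limma. With Scd1, 5 rose (3.12% of all tested probesets): Acacb (r = 0.83), Pparg (0.77), Acsl5 (0.66), Hacd2 (0.60) and Gpam (0.59). With Sqle, 8 of the 23 rose and 4 fell, where 17.8% of all tested probesets rose and 19.0% fell.

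Of 29 other ceramide genes 24 were higher in susceptible mice (52.0% of all tested probesets) and 0 passed (0.0510% of all). At an unadjusted p of 0.05 by limma there were 14, of which only Sgms2 was lower in susceptible mice (-0.83), where 9.52% of all tested probesets reached that level. Sptlc3, a further subunit of serine palmitoyltransferase, averaged 9.12 in susceptible and 7.86 in resistant mice, the nearest to the threshold of all genes in these lists (1.26 ± 0.25, limma adjusted p = 0.0546). Degs2, which makes phytoceramide, averaged 9.61 in susceptible and 8.42 in resistant mice (1.19 ± 0.36, adjusted p = 0.232), and Abhd5 10.26 in susceptible and 9.81 in resistant mice (0.44 ± 0.14, adjusted p = 0.244). With Acer1, 16 of the 29 rose, among them the ceramide synthase Cers3 (r = 0.64), Sptlc3 (0.86) and the acyl-CoA synthetase Slc27a4 (0.82), and 3 fell (7.93% and 8.51% of all tested probesets), namely Cers2 (-0.65), Cers6 (-0.63) and Sgms2 (-0.57).

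Most members have further probesets. Of 41 other tested probesets of the members, 33 had the same sign between the classes as the one chosen and 33 had r over 0.5 with it, while 1, of Sptlc2, had r below 0. That probeset had r = -0.63 with the chosen one and a class difference of -0.15, against 0.07. The relations of Sptlc2 to other genes, such as Scd1, are given for the chosen probeset only. A further probeset of Fdft1 (r = 0.36 with the chosen one) differed by 0.66 between the classes, against 0.26. The order of members by ICC also depends on the probeset. Over the 41 the ICC ran from -0.08 to 0.77, and a further probeset of Sptlc2 (0.77), Lss (0.73), Cyp51 (0.68), Srebf2 (0.66) and Acly (0.65) lay above Acaca. Those of Hmgcs1 lay between 0.21 and 0.54, and those of Sgpp1 at 0.29 and 0.46.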

How the data were processed

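The 68 papillomas were each measured on 1 Affymetrix array, and the deposited values are log2 values made by the authors with RMA, which corrects background, normalizes by quantiles and summarizes probes per probeset (version not given in the sources used here). Of 45101 probesets 34945 had 1 symbol, 932 several, 9160 none, and 64 were controls. All value columns were used. Papillomas of a mouse were averaged and tested by limma, with p-values adjusted by Benjamini-Hochberg over 21581 probesets (threshold 0.05); single members were also compared by exact permutation of 18 mice. Susceptible mice had over 7 papillomas by week 20 and resistant ones under 2, per the methods. Values by mouse are given for Sqle, Scd1, Acer1, and in each arm for the 2 members of smallest class p and those of highest and lowest ICC; outside the members, for up to 3 of smallest class p per list and the 5 closest to each of the 3 genes. Other genes are named to fill a count and were chosen after their values were seen. The members and lists were chosen with earlier results of these data known. On simulated data limma recovered 40.3% of class differences of 0.5, 80.6% of 1 and 98.5% of 2 (7 of 153 calls false), 99.5% of slopes at r = 0.7, and the ICC test 64.0% at an ICC of 0.6. The simulated class differences were given to probesets drawn at random from all tested ones, with independent noise. The median SD was 0.28 over all tested probesets and 0.37, 0.42 and 0.49 over the sterol, fatty acid and ceramide members. The recovered shares are therefore not those of the members, and may be too high for them. The number of mice limits the precision. Alternatives covered the filter, blocks, covariates, centring, probesets, papillomas and mice left out. Software was matplotlib 3.10.9, limma 3.58.1 (R 4.3.3), scipy 1.17.1, numpy 2.4.6, Python 3.11.15 with pandas 2.3.3. Skin, carcinomas and genotypes were not analysed here.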

Additional observations from a re-analysis of the deposited data

How the results depend on the processing

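No member passed between the classes with no filter, with mouse as a random block, with covariates, with arrays centred, over probeset means, without the mice of doubtful sex label or with the first papilloma only, and 27 to 30 members were higher in susceptible mice under these. Leaving out 1 mouse gave 0 to 1 members past the threshold (Elovl7 without mouse 29, Sgpp1 without mouse 37) and 29 to 30 higher. The count over all probesets was less stable. It was 11, and 4 to 89 with 1 mouse left out (89 without mouse 29, 36 without mouse 37, 19 without mouse 10 or mouse 31, 6 without mouse 1, 4 without mouse 34). It was 2 with mouse as a random block, 1 with sex and start cohort as covariates, 6 with the Actb control ratio, 5 over means of a gene's probesets, 28 without the mice of doubtful sex label and 0 with the first papilloma only. With the papilloma number as a replicate block it was 19 and no member's call changed; papilloma 1 of a mouse shares only a number with papilloma 1 of another. The causes were not tested.

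Members that changed sign had small differences. Srebf2 was at -0.024 (sex and cohort) and -0.043 (probeset means), Lss at -0.00265 (without doubtful mice), Acly at -0.15 (sex and cohort) and between -0.016 and 0.13 with 1 mouse left out, Sptlc2 at -0.048 (probeset means), and Abca12 at 0.22 (Actb ratio), 0.018 (first papilloma) and between -0.21 and 0.12 with 1 mouse left out. The ICC of Elovl4 was 0.020 with the Actb ratio removed and between -0.080 and 0.53 with 1 mouse left out.

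By papilloma number as it is, 1 member (Acer2) and 1316 probesets passed, with the number at 24 weeks 0 probesets and with sex and cohort 4, against 1. With Sqle, 7936 probesets passed, 5040 with covariates and 283 in the 19 intermediate mice, where 2 members passed. With Scd1, 955 probesets passed, 400 with covariates, 593 by ranks, 352 without the 2 farthest mice and 280 in intermediate mice, and 5 members passed, against 3 in each of the last 2. With Acer1, 3549 probesets passed, 1954 with covariates, 5428 by ranks and 1800 in intermediate mice, where 11 members passed against 21, and Sgpp1 had a slope of -0.031. The intermediate-only fits were chosen after seeing the data. For the ICC, 19 members passed, 12 without the mice of doubtful sex label and 15 to 28 with 1 mouse left out (ceramide members 3 to 7, all probesets 14065 to 16119). Signal near the array median limits Abca12, which was above it in 56 of 68 arrays.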
